A study of Caenorhabditis elegans with 12 samples.

Results

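The histone genes described here are the 16 genes of Caenorhabditis elegans whose symbols begin with his, htz, htas or hil and that had at least 10 counts in at least 3 of the 12 libraries. They came from 82 histone symbols in a table of 45132 genes. By class they were 7 core histone genes, 4 genes of replacement variants and 5 genes of linker histones. RNA came from whole glp-4(bn2) worms collected on day 1 of adulthood, and the polyA fraction was selected. All 4 groups carried the glp-4(bn2) mutation and held 3 libraries each, namely prp-19 RNAi with atp-2 RNAi, prp-19 RNAi alone, atp-2 RNAi on the control vector L4440, and L4440 alone. RNA interference (RNAi) was given through the bacteria on which the worms were raised, prp-19 is the gene of a spliceosome component, and atp-2 that of an ATP synthase subunit in mitochondria. Libraries that the labels place on prp-19 RNAi are called prp-19-labelled below.

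Core histones H2A, H2B, H3 and H4 form the nucleosome around which DNA is wrapped, and linker histones of the H1 class bind the DNA between nucleosomes. Most core histone genes are expressed in S phase, lack introns, occur in clusters of near-identical copies, and give mRNAs that end in a stem-loop and not in a polyA tail. Replacement variants such as H3.3 and H2A.Z are made outside S phase from genes with introns and polyA tails, and they are placed in chromatin independently of replication. In adult worms the somatic cells no longer divide, so the germline is the main dividing tissue. In glp-4(bn2) worms germ cells fail to proliferate at the restrictive temperature. The temperature of culture was not stated in the labels.

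The 16 genes held 49465 counts, against 620 counts in the 66 symbols that missed the rule. Of those 66, 25 had no count in any library and 28 had 1 to 11 counts in all. In this polyA-selected RNA, 13 of the 16 genes had an annotated 3′ UTR and at least 1 intron, while 5 of the 66 other symbols had an annotated 3′ UTR. The 3 exceptions among the 16 were the intronless core genes his-38, his-40 and his-61. How reads matching several copies were counted is not given in the sources used here, and 35 of the 66 symbols belonged to a name that the Ensembl annotation gives to several loci. Among the 16 this held for his-57 alone, which Ensembl lists as his-47. Just inside the rule were his-61, with at least 10 counts in 5 libraries, and hil-2, with 7 such libraries. Just outside were hil-5 and his-44, with 2 such libraries each, and his-25 and his-62, with 1 each. The 66 symbols together had 7.43 ± 0.575 CPM in prp-19-labelled libraries given atp-2 RNAi, 6.39 ± 0.589 CPM in those labelled prp-19 RNAi alone, 6.07 ± 1.39 CPM in control RNAi with atp-2 RNAi and 6.70 ± 0.482 CPM in control RNAi (SD, n = 3 each). CPM here is a count relative to the size of its library, with sizes adjusted by the trimmed mean of M-values (TMM).

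**Figure D1:**
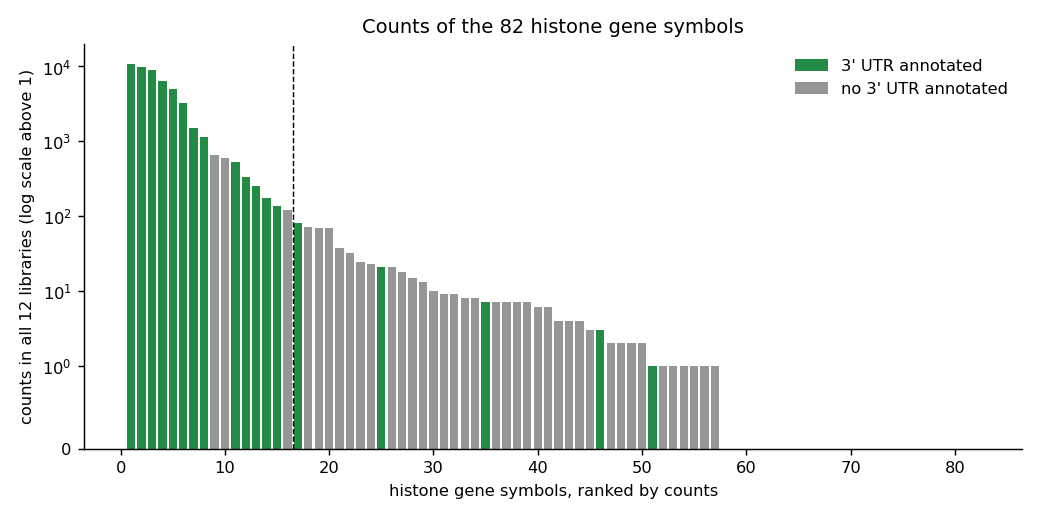
Counts summed over all 12 libraries (vertical axis, log scale above 1) for the 82 histone symbols ranked by count (horizontal axis), with green bars for genes with an annotated 3′ UTR and grey bars for genes with none. The dashed line separates the 16 genes analysed from the 66 below the rule, 25 of which had no count.

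Library totals lay between 6731808 and 8802767 counts, of which the 16 genes took 3426 to 4902 counts, or 0.0473% to 0.0692%. The labels do not say whether the 3 libraries of a group came from separate cultures, so p-values measure the spread between these libraries, which may be technical. The atp-2 mRNA averaged 504.8 ± 7.45 CPM with atp-2 RNAi against 1015 ± 146 CPM without it in prp-19-labelled libraries, and 267 ± 16.3 against 1621 ± 15.4 CPM on control RNAi. The prp-19 mRNA went against its label: it averaged 54.4 ± 25.9 CPM in prp-19-labelled libraries against 26.5 ± 1.96 CPM in control RNAi (log2 fold change 1.04, SE 0.373, adjusted p = 0.0401). With atp-2 RNAi in both groups it averaged 29.4 ± 11.4 against 27.8 ± 0.208 CPM. Whether reads of the RNAi construct entered these counts was not tested. The groups are therefore named by label, and every direction drawn from them rests on that label. Replicate 3 labelled prp-19 RNAi stood apart from its group, with 17.7% of its counts in the 6 vitellogenin genes against 10.4% and 6.85% in the other libraries of the group. Vitellogenins, the yolk proteins of adult hermaphrodites, took 12.3% to 14% of counts in prp-19-labelled libraries given atp-2 RNAi, 11.7% to 12.5% in control RNAi with atp-2 RNAi and 21.9% to 25.7% in control RNAi.

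Per kilobase of exon, the order of levels was led by the 3 genes of a cluster on chromosome V. Over all libraries his-37 averaged 249, his-41 228 and his-35 192 CPM per kb. The H3.3 genes his-72 and his-71 followed at 105 and 92.4 CPM per kb, and the linker gene hil-1 had 39.7 CPM per kb. Below these came his-38, htz-1, his-40 and his-24, between 23.4 and 14.1 CPM per kb. The remaining genes, his-57, his-74, hil-3, his-61, hil-4 and hil-2, lay between 8.38 and 1.90 CPM per kb. The order was not the same in every group: in prp-19-labelled libraries, his-72 had 132 ± 8.52 against 75.1 ± 4.49 CPM per kb for his-71, and in control RNAi 73.5 ± 5.61 against 98.0 ± 8.60 CPM per kb (SD, n = 3). Neighbours in the order also lay within their spread, such as his-37 and his-41, which in control RNAi had 284 ± 9.34 and 283 ± 30.7 CPM per kb.

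All 16 genes passed the filter on low counts and were among the 12850 genes tested with edgeR's quasi-likelihood test, with calls made at a Benjamini-Hochberg adjusted p under 0.05 over all of them. The prp-19-labelled libraries differed from control RNAi in 10 of the 16 genes, 2 higher and 8 lower, beside 58.5% of all genes tested (30% higher and 28.5% lower). With atp-2 RNAi in both groups, 7 of the 16 genes were called, 3 higher and 4 lower, beside 53% of all genes. atp-2 RNAi on control RNAi changed 9 of the 16 genes, 3 higher and 6 lower, beside 34.1% of all genes. In prp-19-labelled libraries it changed 1 of the 16 genes, hil-1, which was lower, beside 9.77% of all genes (5.06% higher and 4.72% lower). The first count is thus near the share over all genes and the second is below it. The interaction, which is the log2 effect of atp-2 RNAi in prp-19-labelled libraries minus that on control RNAi, was called for 6 of the 16 genes, 4 positive and 2 negative, beside 19.3% of all genes (10.1% positive and 9.14% negative). These comparisons share libraries with each other, so their counts are not independent. A change of at least 2-fold among called genes was found for 4 of the 16 genes in the first comparison (his-38, his-40, his-24 and his-74, beside 22.1% of all genes) and for 2 in the second (hil-1 and hil-3, beside 17.8%). It was found for 3 with atp-2 RNAi on control RNAi (his-38, his-40 and his-74, beside 8.41%), 0 with atp-2 RNAi in prp-19-labelled libraries (beside 1.59%) and 2 in the interaction (his-38 and his-40, beside 6.13%).

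The split into higher and lower genes moved with the scaling. With library totals in place of TMM the comparison of prp-19-labelled libraries with control RNAi gave 6 higher and 4 lower genes, the same comparison with atp-2 RNAi gave 6 and 4, and atp-2 RNAi on control RNAi gave 3 and 4. The interaction then had 2 positive and 4 negative genes. Over all genes, library totals called 69.8%, 51.4%, 41.9% and 31.2% in the same 4 comparisons. With library totals the median log2 change of all genes was itself 0.54 for prp-19-labelled libraries against control RNAi, 0.16 with atp-2 RNAi in both, 0.29 for atp-2 RNAi on control RNAi, and -0.38 for the interaction. With TMM the medians of all genes lay between -0.03 and 0.06, and the medians of the 16 genes were -0.31, -0.05 and -0.19 for the first 3 comparisons, -0.02 for atp-2 RNAi in prp-19-labelled libraries and 0.27 for the interaction.

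**Figure D2:**
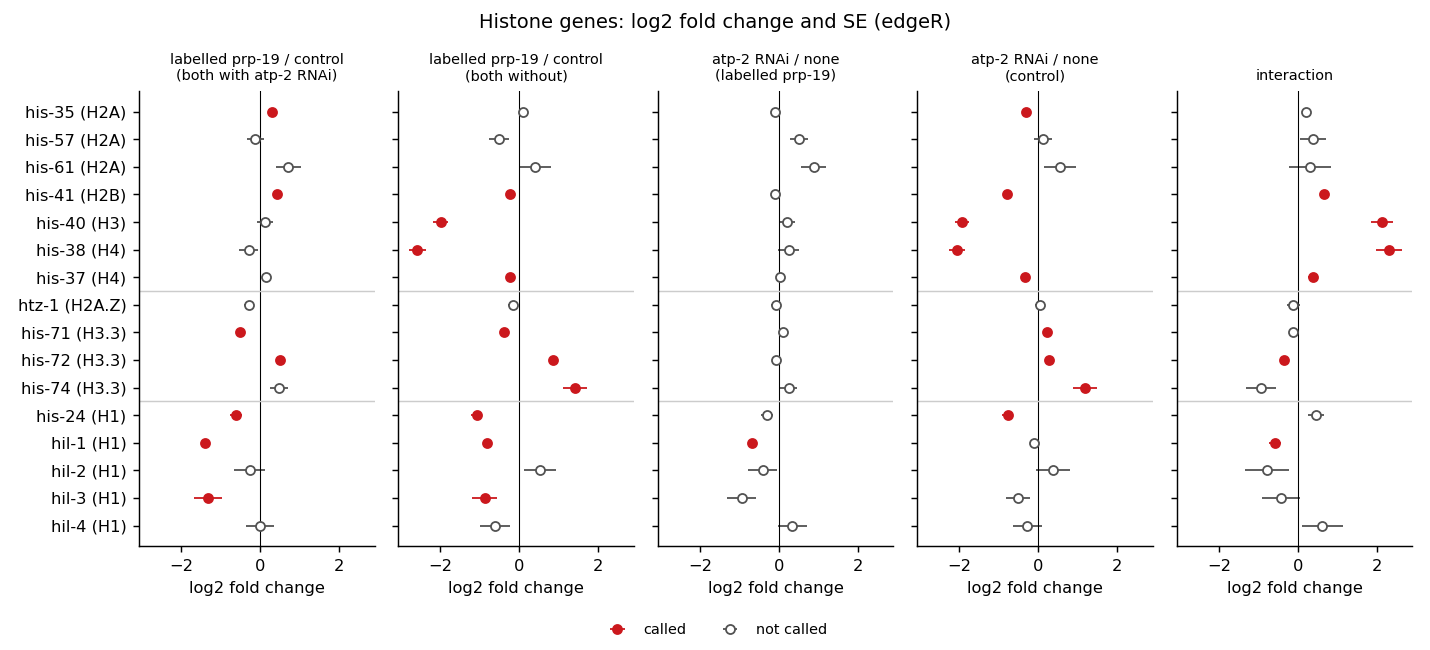
Log2 fold changes (horizontal axis, bars are SE) of the 16 genes in the 4 pairwise comparisons and the interaction, with red points for genes called at an adjusted p under 0.05 and open points for the rest. his-38 and his-40 lie at -2.58 and -2.0 for prp-19-labelled libraries against control RNAi and at -2.06 and -1.93 for atp-2 RNAi on control RNAi. The small lower values of his-37, his-41 and his-71 in the second panel become 0.25, 0.24 and 0.10 with library totals.

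The largest changes against control RNAi were in a pair of intronless core genes on the X chromosome, his-38, which encodes H4, and his-40, which encodes H3. They lie at X:7309564-7309875 on the minus strand and X:7310110-7310520 on the plus strand of WBcel235 (Ensembl 115), 234 bases apart and divergent. The mRNA of his-38 had 2.25, 5.21 and 3.46 CPM in prp-19-labelled libraries given atp-2 RNAi, 3.05, 2.57 and 3.52 CPM in those labelled prp-19 RNAi alone, 5.27, 3.92 and 3.82 CPM in control RNAi with atp-2 RNAi, and 18.3, 19.3 and 17 CPM in control RNAi. For his-40 the values were 4.5, 5.74 and 4.86 CPM in prp-19-labelled libraries given atp-2 RNAi, 4.23, 4.29 and 4.56 CPM in those labelled prp-19 RNAi alone, 5.61, 4.87 and 3.0 CPM in control RNAi with atp-2 RNAi, and 18.5, 19 and 14.7 CPM in control RNAi. Both genes were therefore high in the 3 control RNAi libraries and low in the other 9, with no overlap. Neither has an annotated 3′ UTR. Whether their counts include reads of other copies, or miss mRNA without a polyA tail, was not tested. Against control RNAi, prp-19-labelled libraries had lower his-38 (log2 fold change -2.58, SE 0.209, adjusted p = 3.76e-09) and lower his-40 (-2.0, SE 0.18, adjusted p = 1.72e-08). atp-2 RNAi on control RNAi lowered his-38 by a log2 change of -2.06 (SE 0.198, adjusted p = 1.18e-07) and his-40 by -1.93 (SE 0.18, adjusted p = 7.94e-08). These comparisons share the control RNAi libraries. Among prp-19-labelled libraries, atp-2 RNAi gave 0.25 (SE 0.258) for his-38 and 0.20 (SE 0.207) for his-40, with adjusted p-values of 0.611 and 0.607. Their interaction was 2.31 (SE 0.328, adjusted p = 5.56e-05) for his-38 and 2.13 (SE 0.276, adjusted p = 2.17e-05) for his-40. Every call of the pair held in each alternative setting run, the other scalings and each left-out library included.

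Sperm markers, like the pair, had their highest summed level in control RNAi: the 38 listed genes summed to 10.3 to 13.9 CPM in prp-19-labelled libraries given atp-2 RNAi, 8.11 to 13.5 CPM in those labelled prp-19 RNAi alone, 13.7 to 16.8 CPM in control RNAi with atp-2 RNAi and 20.3 to 25.8 CPM in control RNAi. Of the 38, 23, 25, 27 and 27 were at 0 in the same order of groups, most of the major sperm protein genes among them. Of the 38, 5 were tested, and these went both ways: in prp-19-labelled libraries against control RNAi, spe-11 was higher (log2 fold change 3.42) and ssp-10 lower (-3.89), and ssp-10 alone was called with atp-2 RNAi on control RNAi (-1.46). Vitellogenins were also highest in control RNAi, as given above. The part of either in the result was not tested. In these bulk samples, fewer cells of a type and less RNA per cell cannot be told apart.

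The most abundant core genes were the trio on chromosome V, which have introns: his-35, an H2A gene at V:9544659-9545288 on the minus strand, his-41, an H2B gene at V:9545536-9546264 on the plus strand, and his-37, an H4 gene at V:9547105-9547607 on the plus strand. Summed, the trio had 320 ± 13.7 CPM in prp-19-labelled libraries given atp-2 RNAi, 333 ± 12.7 CPM in those labelled prp-19 RNAi alone, 260 ± 10.8 CPM in control RNAi with atp-2 RNAi and 367 ± 17.9 CPM in control RNAi (SD, n = 3). The lowest group of the sum was thus control RNAi with atp-2 RNAi, unlike the X pair, which was low in 3 groups. By library this held for his-35 and his-41. For his-37 the control RNAi libraries lay above all others, as for the X pair, and the other groups overlapped. The sums are TMM-scaled. With library totals each gene of the trio had a positive value in prp-19-labelled libraries against control RNAi, as given below.

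his-41 had 117, 121 and 107 CPM in prp-19-labelled libraries given atp-2 RNAi, 121, 120 and 130 CPM in those labelled prp-19 RNAi alone, 83.9, 85.7 and 84.1 CPM in control RNAi with atp-2 RNAi, and 132, 163 and 141.7 CPM in control RNAi. Control RNAi with atp-2 RNAi held the lowest 3 values. atp-2 RNAi on control RNAi lowered his-41 (log2 fold change -0.78, SE 0.0824, adjusted p = 3.99e-07, against -0.52 from library totals), and with atp-2 RNAi in both groups it was higher in prp-19-labelled libraries (0.44, SE 0.0819, adjusted p = 0.00015). The interaction for his-41 lay at 0.68 (SE 0.115, adjusted p = 0.000348) and 0.34 with library totals (adjusted p = 0.0648). Without atp-2 RNAi, his-41 was lower in prp-19-labelled libraries (-0.23, SE 0.081, adjusted p = 0.0188), but higher with library totals (0.24, adjusted p = 0.029), and the call was lost without control RNAi replicate 2 (-0.16, adjusted p = 0.124) and when only the libraries compared were fitted (-0.22, adjusted p = 0.0866). his-41 shares 173 of its 515 exon bases with C50F4.6 on the same strand, a gene that averaged 2.54, 2.67, 1.41 and 1.77 CPM in the same order of groups.

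his-35 had 96.4, 98.0 and 101 CPM in prp-19-labelled libraries given atp-2 RNAi, 112, 105 and 99.2 CPM in those labelled prp-19 RNAi alone, 76.1, 80.8 and 82.3 CPM in control RNAi with atp-2 RNAi, and 101, 98.9 and 97.7 CPM in control RNAi. Control RNAi with atp-2 RNAi again held the lowest values. In the comparison with atp-2 RNAi in both groups, prp-19-labelled libraries had higher his-35 (0.31, SE 0.0704, adjusted p = 0.00118). atp-2 RNAi on control RNAi lowered it (-0.32, SE 0.0715, adjusted p = 0.00188), a call that library totals ended (-0.05, adjusted p = 0.737). Without atp-2 RNAi the value for prp-19-labelled libraries was 0.09 (adjusted p = 0.299) with TMM and 0.58 (adjusted p = 5.43e-05) with library totals.

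his-37 had 103, 116 and 100 CPM in prp-19-labelled libraries given atp-2 RNAi, 109, 93.1 and 110 CPM in those labelled prp-19 RNAi alone, 89.1, 104 and 93.8 CPM in control RNAi with atp-2 RNAi, and 117, 124 and 124 CPM in control RNAi. The control RNAi libraries lay above the other 9. It was lower with atp-2 RNAi on control RNAi (-0.35, SE 0.0862, adjusted p = 0.00376), but not called with library totals (-0.08, adjusted p = 0.545). With atp-2 RNAi in both groups his-37 had 0.15 (adjusted p = 0.149) with TMM and was called higher with library totals (0.29, adjusted p = 0.0207). In prp-19-labelled libraries without atp-2 RNAi it was lower (-0.23, SE 0.0858, adjusted p = 0.0287) with TMM and higher with library totals (0.25, adjusted p = 0.0301). That call was also lost without control RNAi replicate 2 (-0.23, adjusted p = 0.0658) or 3 (-0.22, adjusted p = 0.0689), without replicate 2 labelled prp-19 RNAi (-0.16, adjusted p = 0.124) and when only the libraries compared were fitted (-0.21, adjusted p = 0.0829). Within libraries, where scaling has no part, the count of his-41 over that of his-35 averaged 1.17 ± 0.0962 in prp-19-labelled libraries given atp-2 RNAi, 1.18 ± 0.121 in those labelled prp-19 RNAi alone, 1.06 ± 0.0404 in control RNAi with atp-2 RNAi and 1.47 ± 0.171 in control RNAi (SD, n = 3). The ratio did not overlap between control RNAi with atp-2 RNAi (1.02 to 1.1) and control RNAi (1.31 to 1.65).

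The other core genes were H2A genes of low level. his-57, at IV:11340390-11341703 on the plus strand, averaged 5.99 ± 0.943 CPM in prp-19-labelled libraries given atp-2 RNAi, 4.26 ± 1.62 CPM in those labelled prp-19 RNAi alone, 6.47 ± 0.786 CPM in control RNAi with atp-2 RNAi and 6.01 ± 1.11 CPM in control RNAi. It was not called in any comparison over all libraries. Without replicate 3 labelled prp-19 RNAi it was called lower against control RNAi (-0.85, adjusted p = 0.00342) and higher with atp-2 RNAi among prp-19-labelled libraries (0.83, adjusted p = 0.00835). It overlaps klp-12 on the opposite strand over 184 of its 678 exon bases, and klp-12 averaged 108, 108, 131 and 120 CPM in the same order of groups. Strand handling is not given in the sources used here, so the reads of the overlap cannot be assigned. his-61 had 50, 27, 29 and 14 counts summed over the 3 libraries of each group, in the same order, and was not called in any comparison. Its log2 fold changes were between 0.32 and 0.88, with adjusted p-values from 0.0589 to 0.75. With atp-2 RNAi in both groups it was called higher with library totals (0.85, adjusted p = 0.0335) or totals outside the vitellogenins (0.87, adjusted p = 0.025).

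**Figure D3:**
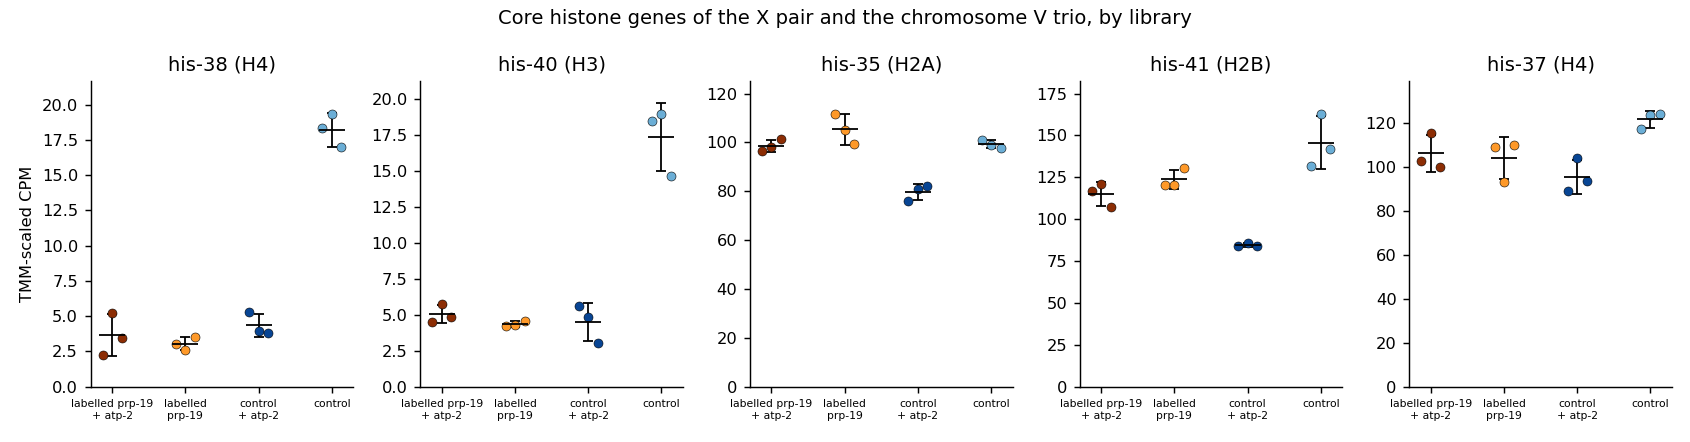
TMM-scaled CPM (vertical axes, each from 0) of the X pair and the chromosome V trio in each library, with points for libraries and black marks for the mean and SD of 3 libraries per group. his-38 and his-40 stand at 14.7 CPM or more in control RNAi and at 5.74 CPM or less in the other groups, while his-35 and his-41 are lowest in control RNAi with atp-2 RNAi.

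Of the replacement variants, the H3.3 genes his-72 and his-71 changed in opposite directions in prp-19-labelled libraries where both groups had atp-2 RNAi. Without atp-2 RNAi they did so with TMM, but not with library totals. his-72, at III:12367475-12369050 on the minus strand, had 77.3, 79.9 and 83.2 CPM in prp-19-labelled libraries given atp-2 RNAi, 88.6, 86.4 and 78.3 CPM in those labelled prp-19 RNAi alone, 54.1, 58.5 and 56.9 CPM in control RNAi with atp-2 RNAi, and 49.9, 43.0 and 47.9 CPM in control RNAi. his-71, at X:7981382-7982070 on the minus strand, had 49.9, 49.5 and 45.3 CPM in prp-19-labelled libraries given atp-2 RNAi, 44.5, 41.7 and 47.0 CPM in those labelled prp-19 RNAi alone, 69.9, 67.9 and 65.5 CPM in control RNAi with atp-2 RNAi, and 52.1, 60.0 and 61.7 CPM in control RNAi. All 6 prp-19-labelled libraries lay above the 6 control libraries for his-72 and below them for his-71.

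his-72 was higher in prp-19-labelled libraries without atp-2 RNAi (log2 fold change 0.85, SE 0.0809, adjusted p = 3.84e-08) and with it in both groups (0.50, SE 0.0779, adjusted p = 2.03e-05). Library totals gave 1.34 without atp-2 RNAi (adjusted p = 1.8e-09). his-71 was lower with atp-2 RNAi in both groups (-0.49, SE 0.0809, adjusted p = 4.12e-05). Without atp-2 RNAi it was lower with TMM (-0.38, SE 0.084, adjusted p = 0.000696), but had a value of 0.10 with library totals (adjusted p = 0.386) and of -0.11 with totals outside the vitellogenins (adjusted p = 0.251). The ratio of his-72 to his-71 counts needs no scaling. It averaged 1.67 ± 0.151 in prp-19-labelled libraries given atp-2 RNAi, 1.91 ± 0.215 in those labelled prp-19 RNAi alone, 0.835 ± 0.053 in control RNAi with atp-2 RNAi and 0.817 ± 0.125 in control RNAi (SD, n = 3). Its range in prp-19-labelled libraries, with and without atp-2 RNAi, was 1.55 to 2.07, against 0.716 to 0.957 in the control libraries, with no overlap.

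atp-2 RNAi on control RNAi gave small higher values for both genes, which library totals moved to 0.54 for his-72 (adjusted p = 0.000691) and 0.50 for his-71 (adjusted p = 0.000352). For his-72 the log2 fold change was 0.27 (SE 0.0826, adjusted p = 0.017), and the call was lost with DESeq2 (0.24, adjusted p = 0.0545), without control RNAi replicate 2 (0.20, adjusted p = 0.103) and without replicate 2 of control RNAi with atp-2 RNAi (0.24, adjusted p = 0.0692). For his-71 it was 0.23 (SE 0.082, adjusted p = 0.0377). That call was lost with DESeq2 (0.20, adjusted p = 0.129), with RLE size factors (0.21, adjusted p = 0.0622), with the replicate block (0.23, adjusted p = 0.0562), without control RNAi replicate 1 (0.16, adjusted p = 0.2) or 2 (0.25, adjusted p = 0.0563), and without replicate 1 (0.21, adjusted p = 0.124), 2 (0.23, adjusted p = 0.0879) or 3 (0.25, adjusted p = 0.0543) of control RNAi with atp-2 RNAi. Summed with his-74, the H3.3 genes had 133 ± 0.987 CPM in prp-19-labelled libraries given atp-2 RNAi, 133 ± 3.51 CPM in those labelled prp-19 RNAi alone, 128 ± 1.84 CPM in control RNAi with atp-2 RNAi and 106 ± 3.56 CPM in control RNAi.

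his-74, a further H3.3-class gene at V:12659704-12660330, was much scarcer. It had 4.97, 4.69 and 4.54 CPM in prp-19-labelled libraries given atp-2 RNAi, 3.64, 3.64 and 4.69 CPM in those labelled prp-19 RNAi alone, 4.35, 2.61 and 3.14 CPM in control RNAi with atp-2 RNAi, and 2.07, 1.42 and 0.88 CPM in control RNAi. The control RNAi libraries lay below the other 9, on 26 counts in all (95% Poisson interval 17 to 38.1). Against control RNAi, his-74 was higher in prp-19-labelled libraries (log2 fold change 1.42, SE 0.299, adjusted p = 0.000495) and with atp-2 RNAi on control RNAi (1.19, SE 0.308, adjusted p = 0.00541), comparisons that have the control RNAi libraries in common. Where both groups had atp-2 RNAi its value was 0.48 (SE 0.229, adjusted p = 0.0854), which was called without replicate 1 of control RNAi with atp-2 RNAi (0.72, adjusted p = 0.0287), with library totals (0.62, adjusted p = 0.0358) or totals outside the vitellogenins (0.63, adjusted p = 0.026). The interaction of -0.93 (adjusted p = 0.0986) was likewise called without control RNAi replicate 1 (-1.29, adjusted p = 0.0487) and with library totals (-1.27, adjusted p = 0.0191).

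htz-1, at IV:4446216-4446999 on the plus strand, encodes H2A.Z, a variant found at promoters. It averaged 14.7 ± 1.42 CPM in prp-19-labelled libraries given atp-2 RNAi, 15.4 ± 2.20 CPM in those labelled prp-19 RNAi alone, 17.8 ± 0.843 CPM in control RNAi with atp-2 RNAi and 17.2 ± 1.74 CPM in control RNAi. It was not called in any comparison over all libraries, with log2 fold changes from -0.27 to 0.04. The value of -0.27 (SE 0.122, adjusted p = 0.0662), for prp-19-labelled libraries when both groups had atp-2 RNAi, was called without replicate 1 (-0.27, adjusted p = 0.0492) or 3 (-0.28, adjusted p = 0.0463) labelled prp-19 RNAi, without replicate 1 of the prp-19-labelled libraries given atp-2 RNAi (-0.35, adjusted p = 0.0413) and when only the libraries compared were fitted (-0.28, adjusted p = 0.0307).

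**Figure D4:**
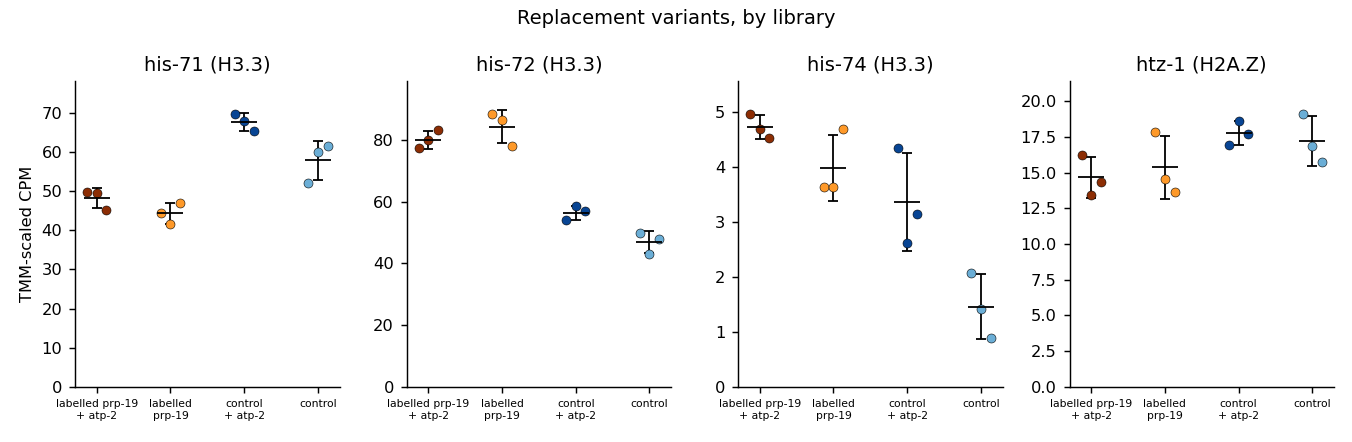
TMM-scaled CPM (vertical axes, each from 0) of the replacement variant genes in each library, with points for libraries and black marks for the mean and SD of 3 libraries per group. his-72 lies above 77 CPM in all 6 prp-19-labelled libraries and below 59 CPM in the control libraries. his-71 lies lower in the prp-19-labelled libraries, an order that library totals turn round without atp-2 RNAi (0.10 on the log2 scale).

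Of the linker histone genes, 3 were lower in prp-19-labelled libraries. Summed over the 5 genes they had 30.6 ± 1.98 CPM in prp-19-labelled libraries given atp-2 RNAi, 44.5 ± 5.06 CPM in those labelled prp-19 RNAi alone, 66.0 ± 1.39 CPM in control RNAi with atp-2 RNAi and 80.0 ± 2.61 CPM in control RNAi (SD, n = 3). Of the 5 genes, 3 fell in each comparison of prp-19-labelled libraries with their controls, namely hil-1, his-24 and hil-3, and 0 rose. Over all genes tested, 28.5% were called lower without atp-2 RNAi and 26.5% with it.

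hil-1, at V:14949777-14952799 on the plus strand, was the most abundant linker gene. It had 17.4, 18.4 and 18.3 CPM in prp-19-labelled libraries given atp-2 RNAi, 32.2, 30.9 and 23.4 CPM in those labelled prp-19 RNAi alone, 47.8, 45.9 and 47.1 CPM in control RNAi with atp-2 RNAi, and 51, 52.9 and 48.1 CPM in control RNAi. The groups did not overlap, and replicate 3 labelled prp-19 RNAi was the lowest of its group. hil-1 was lower in prp-19-labelled libraries without atp-2 RNAi (log2 fold change -0.81, SE 0.0999, adjusted p = 1.21e-06) and where both groups had it (-1.38, SE 0.103, adjusted p = 1.34e-09). atp-2 RNAi lowered it among prp-19-labelled libraries (-0.68, SE 0.107, adjusted p = 0.000345), while on control RNAi the value was -0.11 (SE 0.0962, adjusted p = 0.412). The difference between these effects was called (interaction -0.57, SE 0.144, adjusted p = 0.00819). The 4 calls kept their side of the threshold in each alternative run apart from the 2-fold threshold, but library totals moved the value without atp-2 RNAi to -0.32 (adjusted p = 0.0469) and the interaction to -0.93 (adjusted p = 0.0018), and totals outside the vitellogenins moved the first to -0.53.

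his-24, at X:14490094-14491119 on the plus strand, encodes the linker histone H1.1, which has been linked to germline gene silencing. It had 8.17, 7.69 and 8.53 CPM in prp-19-labelled libraries given atp-2 RNAi, 7.64, 12 and 10.5 CPM in those labelled prp-19 RNAi alone, 11.6, 12.9 and 12.8 CPM in control RNAi with atp-2 RNAi, and 21.8, 20.4 and 21.7 CPM in control RNAi. The control RNAi libraries lay above the other 9. his-24 was lower in prp-19-labelled libraries without atp-2 RNAi (-1.08, SE 0.137, adjusted p = 1.72e-06) and with it in both groups (-0.61, SE 0.146, adjusted p = 0.00168), and atp-2 RNAi on control RNAi lowered it (-0.78, SE 0.134, adjusted p = 0.00014). With library totals the first was -0.61 (adjusted p = 0.000811) and the last -0.51 (adjusted p = 0.00574). Among prp-19-labelled libraries, atp-2 RNAi gave -0.31 (SE 0.149, adjusted p = 0.219), and -0.46 without replicate 1 labelled prp-19 RNAi (adjusted p = 0.0462). The interaction was 0.47 (adjusted p = 0.111), and 0.64 without replicate 2 labelled prp-19 RNAi (adjusted p = 0.0341). On the opposite strand, M163.19 and M163.16 overlap 55 and 119 of its 923 exon bases.

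The other linker genes were scarce. hil-3, at X:8159169-8160084, had 32, 62, 77 and 79 counts summed over prp-19-labelled libraries given atp-2 RNAi, those labelled prp-19 RNAi alone, control RNAi with atp-2 RNAi and control RNAi. With atp-2 RNAi in both groups it was lower in prp-19-labelled libraries (-1.30, SE 0.353, adjusted p = 0.00428), with 0.59, 1.43 and 1.73 CPM against 4.35, 2.26 and 2.73 CPM. Without atp-2 RNAi it was also lower (-0.88, SE 0.31, adjusted p = 0.0208), with 1.64, 2.68 and 3.0 CPM against 5.1, 3.91 and 4.42 CPM. Neither comparison had overlapping groups. The second call was lost without control RNAi replicate 1 (-0.78, adjusted p = 0.0816), without replicate 1 labelled prp-19 RNAi (-0.68, adjusted p = 0.0759), with library totals (-0.41, adjusted p = 0.238) or totals outside the vitellogenins (-0.61, adjusted p = 0.0882).

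hil-2, at IV:6294240-6295217, had 33, 44, 38 and 21 counts in the same order of groups, and hil-4, at V:4754313-4755453 beside the germline gene pgl-3, had 49, 39, 47 and 41. Neither was called in any comparison over all libraries, and at these counts the SE of their pairwise log2 changes was between 0.354 and 0.423. hil-4 was called lower in prp-19-labelled libraries against control RNAi without replicate 2 labelled prp-19 RNAi (-1.14, adjusted p = 0.0273), and hil-2 higher with library totals (0.99, adjusted p = 0.0347).

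**Figure D5:**
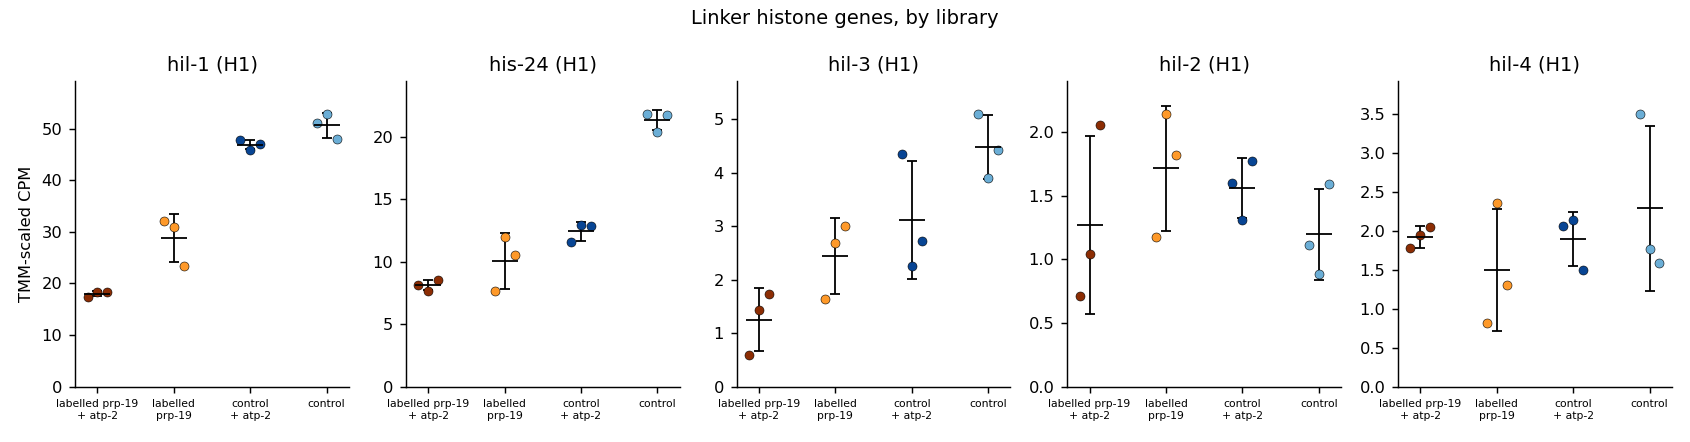
TMM-scaled CPM (vertical axes, each from 0) of the linker histone genes in each library, with points for libraries and black marks for the mean and SD of 3 libraries per group. hil-1 lies at 17.4 to 32.2 CPM in prp-19-labelled libraries and at 45.9 CPM or more in the control libraries, and his-24 is highest in control RNAi.

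Over all classes, core genes summed to 336 ± 15.9 CPM in prp-19-labelled libraries given atp-2 RNAi, 346 ± 14.5 CPM in those labelled prp-19 RNAi alone, 276 ± 10.4 CPM in control RNAi with atp-2 RNAi and 409 ± 20.8 CPM in control RNAi (SD, n = 3). By role, atp-2 RNAi on control RNAi lowered 5 of 7 core genes and raised 3 of 4 variant genes, beside 17.1% of all genes called lower and 17% called higher. The prp-19-labelled libraries without atp-2 RNAi had 4 of 7 core genes lower and 0 higher, beside 28.5% of all genes lower and 30% higher. With it in both groups 2 of 7 were higher and 0 lower, beside 26.5% of all genes in each direction, so the higher count is near the share over all genes. The difference between these effects is tested for each gene by its interaction. With library totals, his-37 and his-41 were higher in prp-19-labelled libraries without atp-2 RNAi, as given above. For atp-2 RNAi on control RNAi, library totals ended the lower calls of his-35 and his-37. The interaction was positive and called for his-38, his-40, his-41 and his-37, and negative and called for hil-1 and his-72. Of these, the call of his-37 (0.38, SE 0.121, adjusted p = 0.034) and that of his-72 (-0.34, SE 0.112, adjusted p = 0.039) were not stable. With library totals the his-37 interaction was 0.03 (adjusted p = 0.871), and with totals outside the vitellogenins 0.26 (adjusted p = 0.14). The his-72 interaction was -0.70 with library totals (adjusted p = 0.00224), and its call was lost with RLE size factors (-0.32, adjusted p = 0.0509), with DESeq2 (-0.32, adjusted p = 0.0881) and when genes of low count were kept in (-0.35, adjusted p = 0.056). Both calls were also lost in several fits that left out 1 library. For his-37 these left out control RNAi replicate 2 (0.37, adjusted p = 0.0704) or 3 (0.37, adjusted p = 0.071), replicate 1 (0.33, adjusted p = 0.103) or 3 (0.37, adjusted p = 0.0804) of control RNAi with atp-2 RNAi, replicate 2 labelled prp-19 RNAi (0.32, adjusted p = 0.0732), or replicate 1 (0.40, adjusted p = 0.0501) or 2 (0.32, adjusted p = 0.0994) labelled prp-19 RNAi and given atp-2 RNAi. For his-72 they left out control RNAi replicate 2 (-0.28, adjusted p = 0.12) or 3 (-0.35, adjusted p = 0.0639), any replicate of control RNAi with atp-2 RNAi (-0.37 to -0.31, adjusted p from 0.0521 to 0.0985), replicate 1 (-0.29, adjusted p = 0.0812) or 2 (-0.31, adjusted p = 0.0784) labelled prp-19 RNAi, or replicate 1 (-0.32, adjusted p = 0.0958) or 2 (-0.34, adjusted p = 0.0738) labelled prp-19 RNAi and given atp-2 RNAi. The replicate block also ended both calls (his-37 adjusted p = 0.0503, his-72 adjusted p = 0.0606).

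Genes of the machinery that handles histones changed in these comparisons too. A list of 33 genes covered histone chaperones, complexes that place H2A.Z or acetylate histones, and the centromeric H3 variants. It also held the enzymes of histone mRNA 3′ end formation and the small RNA factors needed for it in worms. Of the 33 genes, 32 were tested. Of these, 18 were higher and 1 lower in prp-19-labelled libraries against control RNAi, beside 30% and 28.5% of all genes. The median log2 change was 0.56 beside 0.06 for all genes. With atp-2 RNAi in both groups, 14 were higher and 1 lower, beside 26.5% of all genes in each direction. atp-2 RNAi raised 5 and lowered 1 on control RNAi, beside 17% and 17.1% of all genes, so the higher count is near its share. With library totals it raised 15 and lowered 0, where 41.9% of all genes were called and their median log2 change was 0.29. Among prp-19-labelled libraries it raised 0 and lowered 1, beside 5.06% and 4.72% of all genes. The 1 lowered was hmg-4, a subunit of the FACT chaperone (-0.37, SE 0.0755, adjusted p = 0.00332). The largest value was that of cpar-1, which encodes a centromeric H3 of the CENP-A type: it averaged 4.51 ± 0.544 CPM in prp-19-labelled libraries given atp-2 RNAi, 4.18 ± 0.131 CPM in those labelled prp-19 RNAi alone, 1.06 ± 0.178 CPM in control RNAi with atp-2 RNAi and 0.57 ± 0.358 CPM in control RNAi. Its log2 fold change in prp-19-labelled libraries was 2.85 (SE 0.343, adjusted p = 8.73e-07) without atp-2 RNAi and 2.08 (SE 0.271, adjusted p = 2.65e-06) with it in both groups. These values rest on few counts, as cpar-1 had 10 in all in control RNAi and 26 in control RNAi with atp-2 RNAi. hcp-3, the other CENP-A gene, had the largest called change for atp-2 RNAi on control RNAi (0.98, SE 0.329, adjusted p = 0.0274), on 21 counts in all in control RNAi. The next among called genes was hat-1, a histone acetyltransferase (0.60, SE 0.15, adjusted p = 0.00394). ruvb-1 and ruvb-2, the paired ATPases of complexes that include those placing H2A.Z, averaged 24.7 ± 0.987 and 24.8 ± 1.91 CPM in prp-19-labelled libraries given atp-2 RNAi, 26.9 ± 3.36 and 27.6 ± 2.02 CPM in those labelled prp-19 RNAi alone, 8.86 ± 0.169 and 8.69 ± 0.837 CPM in control RNAi with atp-2 RNAi, and 6.47 ± 1.32 and 6.65 ± 0.872 CPM in control RNAi. The ruvb-1 change without atp-2 RNAi was 2.05 (SE 0.142, adjusted p = 4.65e-10) and the ruvb-2 change with it in both groups was 1.51 (SE 0.119, adjusted p = 2.93e-09).

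The gene of this list called lower in both comparisons of prp-19-labelled libraries with their controls, and with atp-2 RNAi on control RNAi, was csr-1, which encodes the Argonaute that acts in the maturation of core histone mRNAs in worms. It averaged 79.2 ± 7.78 CPM in prp-19-labelled libraries given atp-2 RNAi, 70.5 ± 14.9 CPM in those labelled prp-19 RNAi alone, 143 ± 7.07 CPM in control RNAi with atp-2 RNAi and 193 ± 11.8 CPM in control RNAi. The csr-1 interaction lay at 0.60 (SE 0.17, adjusted p = 0.0206) and that of hat-1 at -0.59 (SE 0.195, adjusted p = 0.0415), the largest among the called genes of the list. In all, 1 gene of the list had a positive and 4 a negative interaction, beside 10.1% and 9.14% of all genes. With library totals these counts were 0 and 14, where 31.2% of all genes were called and their median interaction was -0.38. cdl-1, the stem-loop binding protein of histone mRNAs, averaged 6.20 ± 0.903, 5.79 ± 1.52, 5.07 ± 0.499 and 3.35 ± 0.455 CPM in the same order of groups, and it was higher in prp-19-labelled libraries than in control RNAi (0.80, adjusted p = 0.0065).

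Among 37 tested genes of 39 histone modifiers, 20 were higher and 1 lower in prp-19-labelled libraries against control RNAi, beside 30% and 28.5% of all genes. With atp-2 RNAi in both groups 17 were higher and 3 lower, beside 26.5% of all genes in each direction. With library totals the first count was 34 higher and 0 lower, where 69.8% of all genes were called and their median log2 change was 0.54. jmjd-3.3, of the H3 demethylase family (3.58, SE 0.484, adjusted p = 0.000113), and mes-4, a methyltransferase of H3 (1.55, SE 0.27, adjusted p = 7.37e-05), had the largest changes without atp-2 RNAi. With it in both groups, the chromodomain gene mrg-1 (1.64, SE 0.096, adjusted p = 4.06e-11) and the methyltransferase gene set-2 (1.16, SE 0.136, adjusted p = 6.5e-07) led. atp-2 RNAi on control RNAi raised 6 and lowered 1, led by set-18 (0.56, SE 0.136, adjusted p = 0.00349) and hda-3 (0.47, SE 0.155, adjusted p = 0.0249). Over all genes 17% were called higher and 17.1% lower, so the higher count is near its share. With library totals atp-2 RNAi raised 19 and lowered 0, where 41.9% of all genes were called. Among prp-19-labelled libraries it raised 0 and lowered 2, beside 5.06% and 4.72% of all genes. These 2 were jmjd-3.3 (-2.69, SE 0.395, adjusted p = 0.00212) and ash-2 (-0.32, SE 0.0836, adjusted p = 0.0205). The value of jmjd-3.3 has the same widely spread libraries as its reference. The interaction was called negative for sir-2.1 (-0.59, SE 0.122, adjusted p = 0.00207) and met-2 (-0.49, SE 0.154, adjusted p = 0.0306), and with library totals for 9 genes of the list. Over all genes 9.14% were called negative, and library totals called 31.2% in either direction.

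DNA replication genes, with which core histone synthesis is coupled in dividing cells, had their lowest summed level in control RNAi, where the X pair was highest. Of 40 tested, 28 were higher and 0 lower in prp-19-labelled libraries against control RNAi, with a median log2 change of 0.86. Over all genes 30% were higher and 28.5% lower. With DESeq2, which called 36.4% of the genes it tested against 53% in the main fit, the groups that both had atp-2 RNAi gave 7 higher and 1 lower. In the main fit 13 were higher and 4 lower. Over all genes 26.5% were called in each direction, so the higher count is near its share. atp-2 RNAi on control RNAi raised 17 and lowered 0, beside 17% and 17.1% of all genes. With DESeq2 it raised 10 and lowered 0, where 26.2% of the genes tested were called, against 34.1% in the main fit. The interaction was called negative for 7, beside 9.14% of all genes. With library totals it was called negative for 18, where 31.2% of all genes were called in either direction. The primase gene pri-1 led the first comparison (2.59, SE 0.332, adjusted p = 1.92e-06) and that of atp-2 RNAi on control RNAi (2.01, SE 0.358, adjusted p = 0.000197), and its interaction lay at -1.89 (SE 0.423, adjusted p = 0.00364). Also named by rule were psf-1, a subunit of the GINS complex (2.45 without and 2.24 with atp-2 RNAi in both groups), cdc-6, an origin licensing factor (1.06 with atp-2 RNAi in both groups), pole-1, a DNA polymerase gene (1.16 for atp-2 RNAi on control RNAi), and pcn-1, the sliding clamp (interaction -1.11). The values of pri-1 and psf-1 rest on few counts. In control RNAi pri-1 had 11 counts in all and psf-1 7, and psf-1 had 12 in control RNAi with atp-2 RNAi. Summed over the 42 listed genes, levels were 345 to 352 CPM in prp-19-labelled libraries given atp-2 RNAi, 347 to 359 CPM in those labelled prp-19 RNAi alone, 292 to 299 CPM in control RNAi with atp-2 RNAi and 209 to 228 CPM in control RNAi.

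Markers of the germline and of the molt also differed between these groups in summed level. The 30 germline and oocyte markers summed to 255 to 278 CPM in prp-19-labelled libraries given atp-2 RNAi, 270 to 298 CPM in those labelled prp-19 RNAi alone, 141.8 to 145 CPM in control RNAi with atp-2 RNAi and 99.6 to 118 CPM in control RNAi, where meg-1 was at 0. Of 25 tested, 14 were higher and 1 lower in prp-19-labelled libraries against control RNAi, 6 were higher and 2 lower with atp-2 RNAi in both groups, and 9 were higher and 0 lower for atp-2 RNAi on control RNAi. The shares over all genes given above were 30%, 26.5% and 17% higher, so the second count is near its share. The 17 molt genes, which are active in larvae, summed to 167 to 186, 153 to 156, 136 to 151 and 131 to 144 CPM in the same order of groups, and dpy-10 was at 0 in control RNAi. All 17 were tested, and they went both ways. In the same order of comparisons, 8 were higher and 2 lower, 11 higher and 2 lower, and 7 higher and 3 lower. The shares of all genes called lower were 28.5%, 26.5% and 17.1%. Their part in the histone results was not tested.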

How the data were processed

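The authors deposited raw counts per gene for 12 libraries; no column belonged to another sample. The submitters' processing notes name the builds ce11 and WBcel235 and the tools FastQC, STAR 2.7.5c, HISAT2 2.1.0, R 4.0.5 and DESeq2. The sources used here do not name the aligner's role, the counting program or its annotation. The analysis used edgeR 4.0.16 (R 4.3.3): filterByExpr by group (12850 genes), TMM factors, and a quasi-likelihood fit with 1 coefficient per group (8 residual degrees of freedom), tested on simulated data. Adjusted p-values are from this fit over all genes unless another tool (DESeq2 1.42.0) is named. SE is the absolute log2 change over the square root of F. Intervals cover counting error only. Locations and exon lengths are from Ensembl 115 (WBcel235).

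The members and lists were chosen with earlier results of these data known. Named were all variant and linker genes, the 2 most abundant of each core class, the 3 highest and 3 lowest called genes per comparison, and the 2 largest called changes of the first 3 lists. Genes named outside that rule (cdl-1, for example) were chosen after their values were seen. Alternatives were other scalings, DESeq2, no filter, a replicate block, a 2-fold threshold, only the libraries compared, and each library left out. Totals outside the vitellogenins were added after seeing the data. Replicate numbers did not pair libraries. Sequences were not analysed here.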

Additional observations from a re-analysis of the deposited data

Results flagged for a closer look

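For 6 histone genes the effect of atp-2 RNAi in prp-19-labelled libraries differed from that on control RNAi by the interaction test of the edgeR fit. The interaction was 2.31 for his-38 and 2.13 for his-40, whose atp-2 effects were 0.25 and 0.20 in prp-19-labelled libraries against -2.06 and -1.93 on control RNAi. For his-41 it was 0.68, from -0.11 in prp-19-labelled libraries against -0.78 on control RNAi, and library totals ended the call (0.34, adjusted p = 0.0648). For his-37 it was 0.38, from 0.03 in prp-19-labelled libraries against -0.35 on control RNAi, and it was called in 8 of 18 alternatives, with 0.03 under library totals (adjusted p = 0.871). hil-1 had -0.57, from -0.68 in prp-19-labelled libraries against -0.11 on control RNAi, and his-72 had -0.34, from -0.08 in prp-19-labelled libraries against 0.27 on control RNAi, called in 5 of 18 alternatives. The atp-2 mRNA itself was 504.8 CPM with atp-2 RNAi in prp-19-labelled libraries against 267 CPM with it on control RNAi, and its part in these differences was not tested.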

How the results depend on the processing

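Of 1501 values of single genes under alternatives, 1426 kept their direction and side of the threshold, 48 lost it, 22 gained it and 5 turned round. The 5, all for prp-19-labelled libraries against control RNAi, were his-37 (0.25), his-41 (0.24) and his-71 (0.10) with library totals, and his-37 (0.0436) and his-41 (0.0365) with totals outside the vitellogenins. A 2-fold threshold left 4, 2, 3, 0 and 2 of the 16 genes, in the order prp-19-labelled libraries against control RNAi, the same with atp-2 RNAi, atp-2 RNAi on control RNAi, atp-2 RNAi in prp-19-labelled libraries, and the interaction. Leaving out 1 library gave 8 to 11, 7 to 8, 7 to 9, 1 to 2 and 4 to 7. The shares over all genes in those fits were 51.9% to 59.8%, 46.4% to 56.1%, 27.5% to 38.4%, 5.31% to 22% and 14.9% to 27.3%. Without replicate 3 labelled prp-19 RNAi the counts were 11, 8, 9, 2 and 6, beside 59.8%, 56.1%, 38.4%, 22% and 27.3% of all genes. In the main fit these shares were 58.5%, 53%, 34.1%, 9.77% and 19.3%, so that library weighed most on atp-2 RNAi in prp-19-labelled libraries. Same-numbered libraries did not deviate together (1 of 12 pairs over 0.1, from -0.0404 to 0.120), and 4 of 12 libraries lay closest to their own number. With a replicate block the counts were 10, 7, 8, 1 and 4, beside 58%, 52.4%, 33.3%, 8.86% and 17.9% of all genes. Depth limited hil-2, hil-3, hil-4, his-61 and his-74 most, with 14 to 120 counts per group of 3 libraries.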
